A study of Mus musculus with 7 samples.

Results

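Peroxisomal fatty acid oxidation was followed in fasted mouse liver through 9 genes: the importers Abcd2 and Abcd3, the bifunctional enzymes Ehhadh and Hsd17b4, the thiolases Acaa1a, Acaa1b and Scp2, the racemase Amacr and the acyltransferase Crot. They were taken from the arrays by gene name. The 9 genes had 10 probes on 19 spots, out of 36492 gene names, 55681 probes and 59305 spots that are not controls. SHIVA mice carry a mutation in the transcription factor Sox17. Percentages of WT are taken from the difference of the mean log2 signals. In SHIVA livers Acaa1b stood at 51.9% and Ehhadh at 51.7% of WT, with overlapping ranges for Ehhadh. Abcd3 stood at 66.1%, Acaa1a at 71.7% and Hsd17b4 at 76.6%, while the means of Abcd2, Amacr and Crot were higher in SHIVA livers. None of the 9 differences passed the test over all genes.

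Peroxisomes shorten the fatty acids that mitochondria handle poorly, such as very long chains, dicarboxylic acids, branched chains and the side chains of bile acid precursors. Acyl-CoA esters enter through ABC transporters of the membrane. An oxidase, a bifunctional enzyme that hydrates and dehydrogenates, and a thiolase then remove acetyl-CoA or propionyl-CoA. The shortened chains leave as carnitine esters or as free acids and are finished in mitochondria. In rodent liver many of these genes are switched on by PPARα, the nuclear receptor that fasting and fibrate drugs engage.

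The livers came from 3 WT mice of strain C57BL/6 and from 4 SHIVA mice. All were females of 8 to 12 weeks that had been fasted for 24 h, and no fed liver is compared here. SHIVA arose by ENU mutagenesis and replaces a methionine by an arginine in the DNA-binding HMG domain of Sox17. Viable carriers are heterozygous per the study's methods and were kept by repeated backcrossing to C57BL/6, and the mutation is present in the whole animal, not only in the liver. RNA of each mouse was hybridized to its own single-colour Agilent array, so the 7 samples are 7 mice. Several of the 9 genes were themselves picked by the study from these arrays, so their direction here is not independent evidence.

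All 7 arrays lay on 1 slide, WT in row 1 and SHIVA in row 2, and the row and the genotype cannot be told apart. Between 45.8% and 50.1% of spots were well above background, and 0 spots were saturated. The Sox17 probe, which does not read the mutation, had a mean log2 signal of 3.95 (SD 0.56, n = 3) for WT mice and 4.64 (SD 0.13, n = 4) for SHIVA mice, well above background on 2 of the WT arrays and 4 of the SHIVA arrays. The array of WT replicate 3 stood apart from its group. Over all genes tested its log2 signals correlated at 0.982 and 0.984 with the other WT arrays, and at 0.977 to 0.989 with the SHIVA arrays. The other WT arrays correlated at 0.972 to 0.983 with the SHIVA arrays. SHIVA replicate 2 also stood apart, at 0.981 to 0.984 with the other SHIVA arrays, which correlated at 0.988 to 0.993 with each other. Array weights were lowest for SHIVA replicate 2 (0.503), WT replicate 3 (0.575) and WT replicate 1 (0.584). Without SHIVA replicate 2, 0.311% of genes were called instead of 0.375%. Without WT replicate 3 the share was 2.14%, and the values that move most are given without that array too.

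Each probe is a DNA of 60 bases. No other probe of the array shares a run of 18 bases with any of the 10 probes. The closest relatives among the 9 genes are Acaa1a and Acaa1b, neighbours on chromosome 9. Their probes match in at most 22 of 60 bases (36.7%) in an ungapped alignment. Neither probe was compared with the transcript of the paralog, so whether they read each other was not tested. The first 30 bases of each are shown because the readings of these paralogs differ and rest on these letters.
Acaa1a probe, on the plus strand within chr9:119259353-119259412 of mm9: ccctggttgcaaagccatttgtacctttga
Acaa1b probe, on the minus strand within chr9:119057326-119057385 of mm9: tctgcgtgggacactcagcagtggaggagt

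Upstream sequences were read for some of the members, in RefSeq windows of GRCm38.p6. The windows used were those of Abcd3, Scp2, Crot, Acaa1a, Acaa1b and Ehhadh, and Hsd17b4 was left out. The direct repeat to which PPARα binds with RXR was searched on both strands as AGGTCANAGGTCA, with N for any base, in the 300 bases around each start. Of the 32851 windows of this length, 0.0396% hold it without a mismatch, 3.86% with at most 2 and 24.6% with at most 3. The best site had 4 mismatches in Abcd3, Scp2, Crot, Acaa1b and Ehhadh and 5 in Acaa1a, so these letters were not found in these windows. The CCAAT box, read as CCAAT or on the opposite strand as ATTGG, was chosen after the windows had been read. Its letters are not part of the repeat. Of the stretches of 250 bases before all starts, 33.8% hold it at least once and 9.91% at least 2 times. Acaa1a holds 3, Acaa1b 2, Ehhadh 1 and Crot 1, and Abcd3 and Scp2 hold 0. The 250 bases before the start are printed for the thiolase paralogs and for Ehhadh, which are long known as PPARα targets in rodents, with CCAAT boxes in capitals.
Acaa1a, chr9:119341044-119341293, plus strand: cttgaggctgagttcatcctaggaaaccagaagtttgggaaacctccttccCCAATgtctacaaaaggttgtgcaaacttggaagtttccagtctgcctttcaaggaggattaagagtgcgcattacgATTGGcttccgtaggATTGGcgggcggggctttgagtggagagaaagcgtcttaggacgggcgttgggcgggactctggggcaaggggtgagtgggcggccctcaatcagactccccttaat
Acaa1b, chr9:119157094-119157343, minus strand: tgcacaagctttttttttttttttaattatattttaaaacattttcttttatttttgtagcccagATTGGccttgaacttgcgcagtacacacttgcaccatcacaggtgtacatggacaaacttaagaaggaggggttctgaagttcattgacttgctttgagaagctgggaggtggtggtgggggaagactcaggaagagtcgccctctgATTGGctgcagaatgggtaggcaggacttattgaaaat
Ehhadh, chr16:21787835-21788084, minus strand: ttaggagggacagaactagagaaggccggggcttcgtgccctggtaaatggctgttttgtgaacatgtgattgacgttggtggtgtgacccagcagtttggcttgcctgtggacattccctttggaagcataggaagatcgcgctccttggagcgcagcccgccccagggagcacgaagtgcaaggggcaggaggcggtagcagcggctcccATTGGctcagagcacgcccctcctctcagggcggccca
The paralogs differ in composition, with 53.6% G or C and 10 CG dinucleotides in Acaa1a against 41.6% and 2 in Acaa1b. Ehhadh has 60.4% and 12, and the medians over all windows are 52.4% and 6.

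Signals below are log2 values after quantile normalization, and a difference is the SHIVA mean minus the WT mean. All 9 genes were well above background on all 7 arrays, so every member was measured in every liver. By limma, 0 of the 9 members had an adjusted p under 0.05, against 0.375% of the 20012 genes tested. At an unadjusted limma p under 0.05, 4 members were lower and 0 higher, where 6.1% of all genes were lower. The WT and SHIVA ranges of 4 members did not overlap, all of them lower in SHIVA, against 6.02% of all genes, and 0 members lay wholly above WT, against 6.15%. Of the 9 differences 6 were below 0, and their median was -0.38, where the median over all genes was -0.01. In bulk liver, fewer cells of a type and less RNA per cell cannot be told apart.

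Of the importers, Abcd3 was lower in SHIVA livers, and the mean of Abcd2 was slightly higher with overlapping values. Abcd3, also known as PMP70, carries acyl-CoA esters of long dicarboxylic and branched acids and bile acid precursors. It is read on the minus strand of chr3:121461892-121461951. Its log2 signals were 13.02, 13.38 and 12.90 in WT replicates 1 to 3 and 12.51, 12.48, 12.46 and 12.55 in SHIVA replicates 1 to 4. Every SHIVA liver lay below every WT liver, and the SHIVA livers lay within 0.10 of each other. The difference was -0.60 (SE 0.15, 95% confidence interval -0.95 to -0.25), with a limma adjusted p of 0.180.

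Abcd2 takes up very long unsaturated chains and is best known from fat and brain. Its probe lies on the minus strand of chr15:90976565-90976624. The log2 signals were 5.45, 5.81 and 6.04 in WT livers and 5.90, 5.65, 6.32 and 6.05 in SHIVA livers. The ranges overlapped, and the difference was 0.21 (SE 0.21, interval -0.26 to 0.68, limma adjusted p = 0.721). It was 0.05 without WT replicate 1, 0.10 without SHIVA replicate 3 and 0.35 without WT replicate 3. The change of Abcd2 minus that of Abcd3 was 0.81. This was 1 of 5 pairs of genes compared by a two-sided exact permutation test over the 35 splits of the mice into 3 and 4. It gave p = 0.0286 in the exact test, the smallest that the design allows, and 0.0714 after adjustment over the 5 pairs. Even at this smallest p, a pair could not pass the adjustment unless other pairs also reached it.

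The bifunctional enzymes were both lower on average, Ehhadh with a wide spread in WT. Ehhadh handles straight and dicarboxylic chains. Its probe lies on the minus strand of chr16:21761914-21761973. Its log2 signals were 13.37, 14.12 and 12.29 in WT livers and 12.23, 12.38, 12.50 and 12.12 in SHIVA livers. WT replicates 1 and 2 lay above all SHIVA livers, and WT replicate 3 lay within their range. The difference was -0.95 (SE 0.37, interval -1.79 to -0.11, limma adjusted p = 0.313). Without WT replicate 3 it was -1.44, with a limma adjusted p of 0.0309, and without WT replicate 2 it was -0.52, with 0.677.

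Hsd17b4, the D-bifunctional protein, works on branched chains, very long chains and bile acid precursors. Its probe lies on the plus strand of chr18:50355686-50355745. WT livers gave log2 signals of 12.64, 13.42 and 12.66, and SHIVA livers 12.49, 12.51, 12.50 and 12.58. The ranges did not overlap, but they were only 0.06 apart, and WT replicate 2 alone stood high. The difference was -0.38 (SE 0.21, interval -0.85 to 0.09, limma adjusted p = 0.474). Without WT replicate 2 it was -0.13. The changes of Ehhadh and Hsd17b4 differed by -0.57 (exact permutation p = 0.171, 0.171 adjusted over the pairs). Without WT replicate 3 they differed by -0.93 (exact permutation p = 0.0667, the smallest possible with that mouse left out, and 0.111 adjusted).

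The thiolases cut the shortened chain from the acetyl-CoA or propionyl-CoA. Acaa1b gave log2 signals of 13.84, 14.37 and 13.74 in WT livers and 13.21, 12.88, 13.32 and 12.74 in SHIVA livers. The lowest WT liver was 0.42 above the highest SHIVA liver, the widest gap among the 9 genes. The difference was -0.95 (SE 0.21, interval -1.44 to -0.46), and its limma adjusted p of 0.133 was the smallest among the 9. When the mean spot signal or the authors' own log2 table was used in place of the processed signal, Acaa1b passed the threshold, with limma adjusted p of 0.0412 and 0.0451 at differences of -0.97 and -0.96. The shares called over all genes were then 0.704% and 0.64%, against 0.375% with the processed signal. The authors' table orders the spots of an array as the mean signal does (smallest rank correlation 1.0). These settings are therefore not independent of each other. Over the 17 alternatives the limma adjusted p of Acaa1b ranged from 0.0412 to 0.340.

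Acaa1a, the paralog, gave 14.27, 14.58 and 14.12 in WT livers and 13.92, 14.07, 13.86 and 13.53 in SHIVA livers. Again no ranges overlapped, with a gap of 0.05 between WT replicate 3 and SHIVA replicate 2. The difference was -0.48 (SE 0.18, interval -0.90 to -0.06, limma adjusted p = 0.306). The signal of Acaa1b relative to that of Acaa1a on the same array was -0.43 to -0.21 for WT mice and -1.19 to -0.55 for SHIVA mice. These ranges did not overlap, and the mean shift was -0.47 (exact permutation p = 0.0571, 0.0952 adjusted over the pairs), which did not pass.

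Scp2 encodes a thiolase for branched chains and, from an inner start, sterol carrier protein, and signals at the end of the gene do not separate these products. Its brighter probe, on the minus strand of chr4:107717189-107717248, gave log2 signals of 16.19, 15.99 and 15.84 in WT livers. SHIVA livers gave 15.90, 15.85, 15.82 and 15.90, and the ranges overlapped. The difference was -0.14 (SE 0.14, interval -0.46 to 0.18, limma adjusted p = 0.725), and it was -0.05 without WT replicate 1 and -0.24 without WT replicate 3. The second probe, at chr4:107716922-107716981, gave a difference of -0.17 (SE 0.13) with no overlap between the genotypes, and a limma adjusted p of 0.631 when each probe was tested by itself. The changes of Acaa1a and Scp2 differed by -0.34 (exact permutation p = 0.143, 0.171 adjusted over the pairs), with -0.46 to -0.19 when a mouse was left out.

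Amacr turns the R forms of branched acyl-CoAs and bile acid precursors into the S forms that the oxidases accept. Its probe, on the plus strand of chr15:10925139-10925198, was printed on 10 spots per array, and the spots of 1 array had SDs between 0.033 and 0.081. The log2 signals were 13.12, 13.29 and 13.32 in WT livers and 13.53, 13.19, 13.64 and 13.35 in SHIVA livers. The ranges overlapped through SHIVA replicate 2, and without that mouse they did not. The difference was 0.18 (SE 0.16, interval -0.18 to 0.54, limma adjusted p = 0.684), and 0.11 to 0.26 with a mouse left out. The SDs between mice, 0.11 in WT and 0.20 in SHIVA, were larger than those between the spots of any array.

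Crot moves shortened chains onto carnitine for the way to the mitochondria. Its probe lies on the minus strand of chr5:8966430-8966489. WT livers gave log2 signals of 13.39, 13.67 and 13.69, and SHIVA livers 14.16, 13.34, 14.31 and 13.34. SHIVA replicates 1 and 3 lay above all WT livers, and SHIVA replicates 2 and 4 below all of them. The difference was 0.20 (SE 0.27, interval -0.42 to 0.82, limma adjusted p = 0.802), and it was 0.03 without SHIVA replicate 3, 0.08 without SHIVA replicate 1, 0.11 without WT replicate 1 and 0.35 without SHIVA replicate 2 or 4. The plot of signals by mouse shows this split beside the tight SHIVA values of Abcd3 and Hsd17b4.

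**Figure D1:**
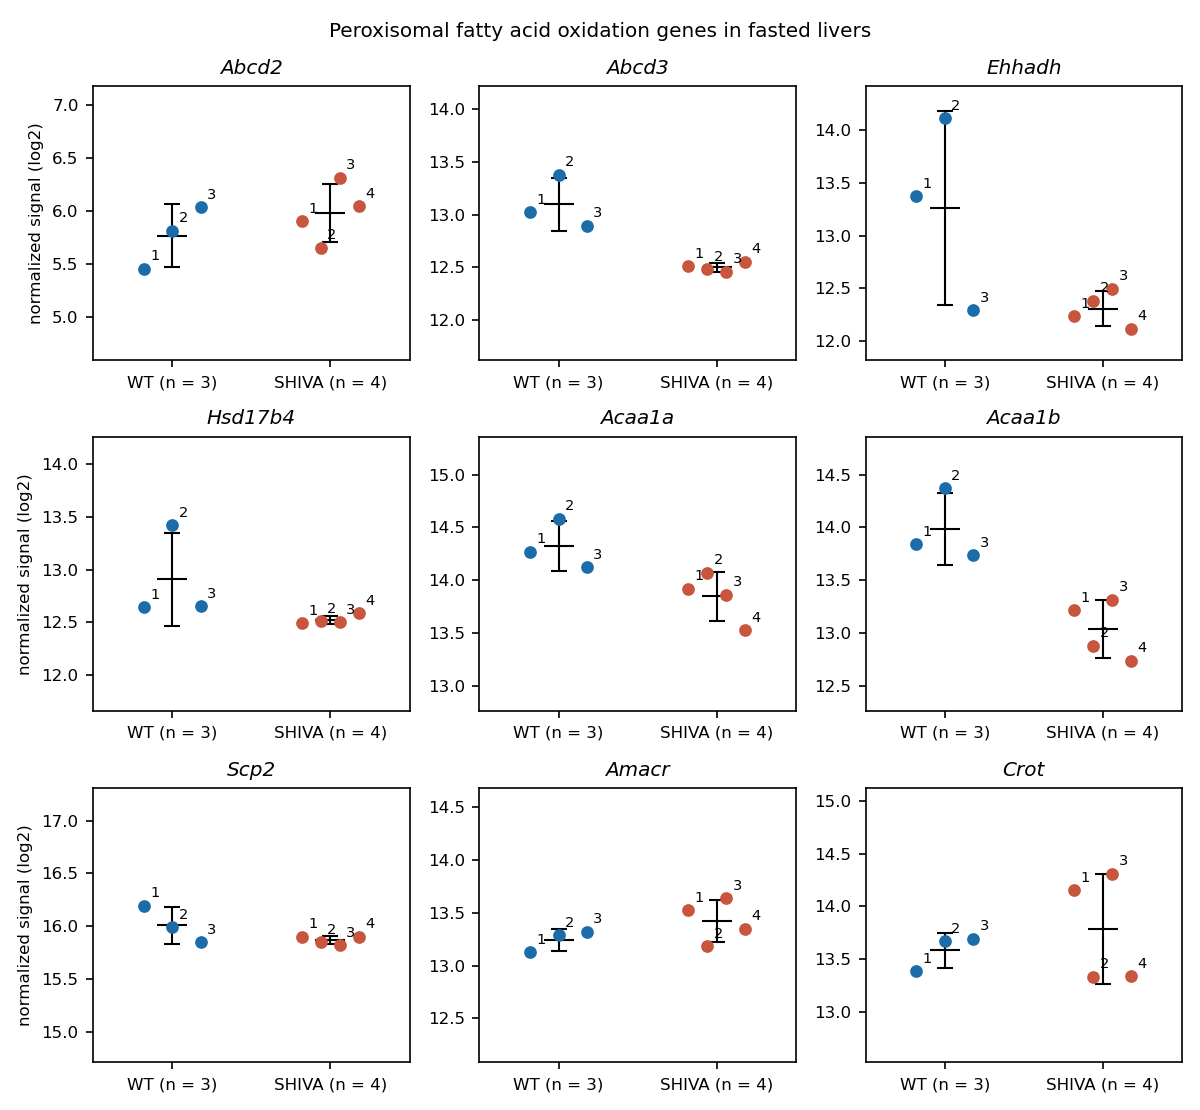
Log2 normalized signal of the 9 genes in each liver, WT in blue (n = 3) and SHIVA in red (n = 4), with replicate numbers beside the points, and the mean and SD of each group in black. Every panel spans the same number of log2 units. Abcd3, Hsd17b4, Acaa1a and Acaa1b show no overlap, while WT replicate 3 lies among the SHIVA livers for Ehhadh.

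The SD was larger in WT than in SHIVA livers for 7 of the 9 genes, against 55.3% of all genes. For Hsd17b4 the WT SD was 10.6 times the SHIVA SD, for Abcd3 6.08 times, for Ehhadh 5.52 times and for Scp2 4.41 times. Crot and Amacr were the exceptions, at 0.325 and 0.530 times. WT replicate 2 was the highest WT liver for 5 genes, and SHIVA replicate 3 the highest SHIVA liver for 5. The ratios rest on single mice: without WT replicate 2 the WT SD was larger for 4 of the 9 genes, and that of Hsd17b4 was 0.213 times the SHIVA SD. They were not tested.

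The remaining genes of the pathway were 27, all measured and tested. By limma 0 were called, 20 were lower and 7 higher, and the median difference was -0.23. At an unadjusted limma p under 0.05, 10 were lower and 0 higher, where 6.1% of all genes were lower. Ranges lay wholly below WT for 8, against 6.02% of all genes. Without WT replicate 3, 5 were called, all lower: Acot3, Acot4, Acot5, Acot8 and Crat. The share called over all genes was then 2.14%, against 0.375% with all mice. With any other mouse left out, 0 of the 27 were called. The plot by step gives the differences along the pathway.

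Among the acyl-CoA oxidases, which take the first step, Acox2, for bile acid precursors and branched chains, differed by 0.14 and Acox3 by -0.18. The ranges of both overlapped between the genotypes, with limma adjusted p of 0.820 and 0.717.

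Thioesterases and other genes of export lay lowest. Of 8 genes, 7 were lower, and the median difference was -0.91. Ranges lay wholly below WT for 6 of them, against 6.02% of all genes. Crat, which forms acetylcarnitine and other short carnitine esters, gave 8.39, 8.84 and 7.42 in WT livers and 6.86, 7.05, 6.88 and 6.85 in SHIVA livers. All SHIVA livers lay below all WT livers, with a difference of -1.31 (SE 0.30, limma adjusted p = 0.133). WT replicate 3 was the nearest to them, and without it the difference was -1.71 (limma adjusted p = 0.0137). Without WT replicate 1 or 2 the limma adjusted p of Crat was 0.403 or 0.318. Crot and Crat, the peroxisomal carnitine acyltransferases, thus had differences of opposite sign. Their changes differed by 1.51 (exact permutation p = 0.0286, 0.0714 adjusted over the pairs).

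The acyl-CoA thioesterases release free acids and coenzyme A. Acot5 differed by -2.16 (SE 0.48, limma adjusted p = 0.133, or -2.85 and 0.00751 without WT replicate 3), Acot3 by -1.37, Acot4 by -0.93, Acot8 by -0.89 (SE 0.19, limma adjusted p = 0.121) and Acot6 by -0.22. For Acot5 the limma adjusted p was 0.410 without WT replicate 1 and 0.321 without WT replicate 2. Acot3, Acot4, Acot5 and Acot6 are close paralogs, and whether their probes read each other was not tested. The coenzyme A diphosphatases Nudt7 and Nudt19 differed by -0.59 and 0.27.

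Auxiliary enzymes for double bonds and branched chains lay between these steps. Of 7 genes 5 were lower, and their median difference was -0.36. The isomerases Eci2 and Eci3 and the dienoyl-CoA isomerase Ech1 differed by -0.59, -0.53 and -0.51, and Ech1 alone of these had no overlap. Decr2, the dienoyl-CoA reductase, differed by -0.36. The enzymes of phytol and phytanic acid breakdown were closer to 0, with Hacl1 at -0.15, Pecr at 0.01 and Phyh at 0.08.

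For entry and activation, the acyl-CoA binding proteins Acbd4 and Acbd5 differed by -0.35 and 0.15, the very long chain acyl-CoA synthetase Slc27a2 by 0.05 and the cofactor carrier Slc25a17 by 0.10. Of these, Acbd4 had no overlap. The proteases Tysnd1 and Lonp2 differed by -0.32 and -0.23, catalase (Cat) by -0.19, and Baat, which conjugates bile acids, by -0.11.

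**Figure D2:**
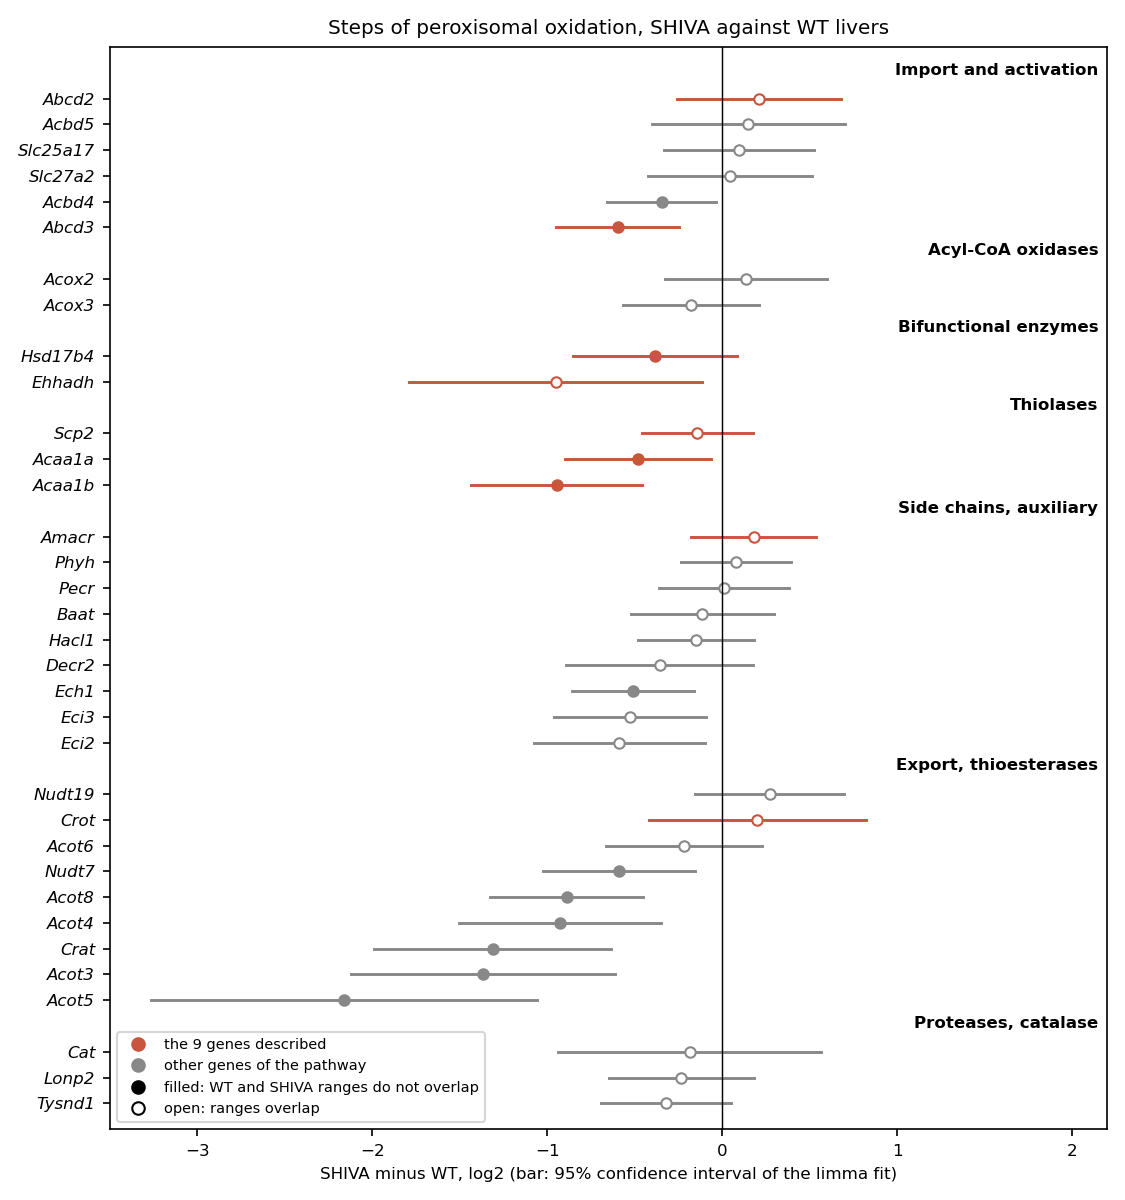
SHIVA minus WT differences on the log2 scale for the 9 genes (red) and other genes of peroxisomal oxidation (grey), by step, with 95% confidence intervals of the limma fit. Filled points have WT and SHIVA ranges that do not overlap. The largest differences are those of Acot5, Acot3 and Crat, and the intervals of Acox2 and Acox3 hold 0.

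The 9 genes were set beside lists of related genes as a description. For the counts without overlap in each list, 6.02% of all genes had ranges wholly below WT. Peroxins, which build the organelle, were lower for 15 of 16 genes with 0 called, 4 without overlap and a median difference of -0.25. Pex11a, which promotes peroxisome division, differed by -1.64 (SE 0.39, limma adjusted p = 0.145), with log2 signals of 14.14, 14.24 and 12.47 in WT livers and 11.91 to 12.12 in SHIVA livers. Pex16, for membrane assembly, differed by -0.58. WT replicate 3 was the lowest WT liver for Pex11a, and without it the difference was -2.22 (limma adjusted p = 0.00311). Without WT replicate 1 or 2 the limma adjusted p of Pex11a was 0.442 or 0.376.

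Mitochondrial beta-oxidation, which takes over the shortened chains, was lower for 15 of 17 genes with 0 called and 4 without overlap. The median difference was -0.24, and -0.08 without WT replicate 2. The carnitine carrier Slc25a20 differed by -0.76 (-0.96 and a limma adjusted p of 0.0263 without WT replicate 3), the enoyl-CoA isomerase Eci1 by -0.62 and the medium-chain dehydrogenase Acadm by -0.42. Without WT replicate 1 or 2 the limma adjusted p of Slc25a20 was 0.409 or 0.386.

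Of 6 genes for PPARα and its partners, Ppara itself had the largest difference. Its log2 signals were 12.19, 12.61 and 12.33 in WT livers and 11.66, 11.75, 11.64 and 11.78 in SHIVA livers. The ranges did not overlap, and the difference was -0.67 (SE 0.15, limma adjusted p = 0.132). The coactivator Ppargc1a differed by 0.32 with a SHIVA SD of 1.18. SHIVA replicate 2 lay at 6.62 and the other SHIVA livers at 8.67 to 9.29, and the difference was 0.90 without SHIVA replicate 2 and 0.00 without SHIVA replicate 4. The oxysterol receptor Nr1h3 differed by -0.11.

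Further targets of PPARα outside the pathway were lower for 14 of 14 genes. Their median difference was -1.37, 7 had no overlap, and 1 was called, the retinol saturase Retsat at -1.56 (limma adjusted p = 0.0456). That call was lost when any mouse other than WT replicate 3 was left out, with limma adjusted p of 0.0689 to 0.203. Without WT replicate 3, 9 of the 14 were called, Retsat, Cidec, Acot1 and Cyp4a14 among them, at a share of 2.14% over all genes. With any other mouse left out 0 were called. The largest differences were those of the lipid droplet protein Cidec at -2.79, well above background on only 3 arrays, the cytosolic thioesterase Acot1 at -2.69 and the omega-hydroxylase Cyp4a14 at -2.27. The study chose several of these genes on the same arrays.

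**Figure D3:**
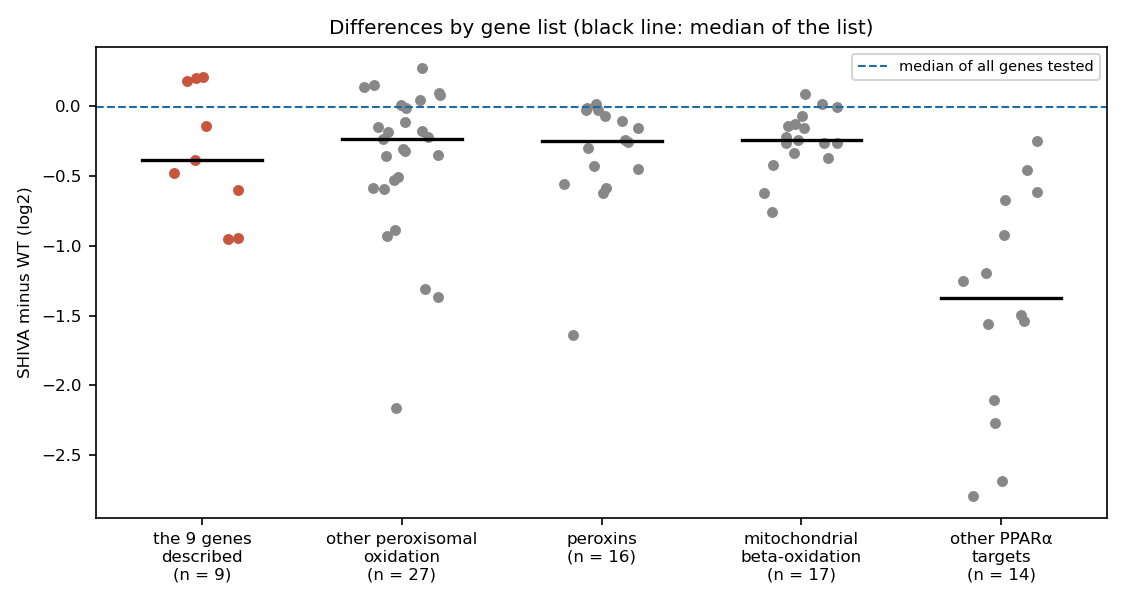
SHIVA minus WT differences on the log2 scale for each gene of 5 lists, with the list's median as a black line and the median of all genes tested as a dashed line. The 9 genes have a median of -0.38, and the other PPARα targets reach from -2.79 to -0.25.

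Correlations between members across the 7 livers are given as a description, since the livers share the genotype contrast. Of 36 pairs 19 were positive and 17 negative. Amacr and Crot had a Pearson's r of 0.905, and 0.932 for deviations from their group means, and both were high in SHIVA replicates 1 and 3. Abcd3 had an r of 0.919 with Acaa1b, 0.880 with Ehhadh and 0.878 with Hsd17b4, and of 0.607, 0.848 and 0.957 for deviations from the group means. Acaa1a and Acaa1b had an r of 0.882, and of 0.674 for deviations. Abcd2 had negative values with Ehhadh, at -0.45, and with Scp2, at -0.74.

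The genes with the most similar pattern over the 7 livers were named for each member by Pearson's r among all genes tested. Grwd1 (0.993), Chrna2 and Vwa8 led for Ehhadh. Acad11 (0.990) and Polr1b led for Hsd17b4, Ubb (0.998) and Tgfbrap1 for Acaa1b, and Inhbe (0.981) and Tbrg4 for Acaa1a. Rbm48 (0.994) and Nup98 led for Abcd3, Brox (0.996) and Lamc1 for Abcd2, and Limch1 (0.986) and Wdr33 for Amacr. Zbtb45 (0.981), Fga and Fbxl14 led for Crot. For Scp2 the closest symbol was Ankrd49 (0.982), after a transcript that has only an identifier. These are the highest of 20012 values over only 7 livers, and no level was set for what similar genes would reach.

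Markers of the cell types in liver were read beside these values. Of 37 markers tested, 0 were called. The mean log2 signal of 6 hepatocyte markers, among them Alb, was 16.30 to 16.47 in WT and 16.32 to 16.48 in SHIVA livers, with summed signals of 859445 to 925071 and 850548 to 921812 on the linear scale. Alb had the same log2 signal, 18.28, in WT replicate 3 and SHIVA replicate 1, and Serpina1a had 18.22 in WT replicate 2 and SHIVA replicate 3. Quantile normalization sets the values at such high ranks, so the likeness of these sums does not measure hepatocyte content. All 5 Kupffer cell markers were higher on average in SHIVA, at a mean log2 signal of 9.81 in WT and 10.38 in SHIVA, with summed signals of 8200 to 17872 and 11259 to 20937. All 4 neutrophil markers tested were also higher on average, with mean log2 signals of 5.41 to 6.95 and 5.23 to 8.45 and summed signals of 406 to 1177 and 337 to 2126. Both ranges overlapped between the genotypes. The 2 erythroid markers tested had mean log2 signals of 12.45 to 12.95 in WT and 12.90 to 13.65 in SHIVA livers, and Alas2 had no overlap. Of the hepatocyte markers 4 were higher and 2 lower on average, with Ttr at -0.32 without overlap and Tat at 0.38. Of the 5 stellate cell markers 2 were higher, Col3a1 at 0.99 and Col1a1 at 0.61, and 3 lower, of which Des at -0.24 had no overlap. Among 4 cholangiocyte markers tested, Krt7 at -0.81, Krt19 at -0.73 and Spp1 at -0.55 were lower and Sox9 at 0.60 higher. Endothelial markers were lower for 3 and higher for 2, with Kdr at -0.29 and Lyve1 at 0.79. Lymphocyte markers tested were lower for 2 and higher for 2. All markers of these last cell types overlapped between the genotypes. For pancreas 1 of 5 and for adipocytes 1 of 4 markers passed the filter, with Cpa1, Pnlip, Prss1, Cfd and Plin1 above background on 0 arrays. The part of these cell types in the members' differences was not tested.

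Under other ways of processing, the direction of each member stayed as given. With signals scaled to the 75th percentile instead of quantile normalization, 2 members had no overlap, Abcd3 and Acaa1b, instead of 4, against 11.3% and 12.2% of all genes in either direction. The count was 3 with normexp, the mean signal or the authors' table, where Hsd17b4 overlapped. Without WT replicate 3, 6 members had no overlap, with Ehhadh and Scp2 added to the 4, but the share over all genes was then 28.9%. Abcd3 and Acaa1b had no overlap in any of these settings. Leaving out a mouse narrows the range of its group, so genes apart with all mice could hardly overlap there. All 4 stayed apart with any mouse left out.

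**Figure D4:**
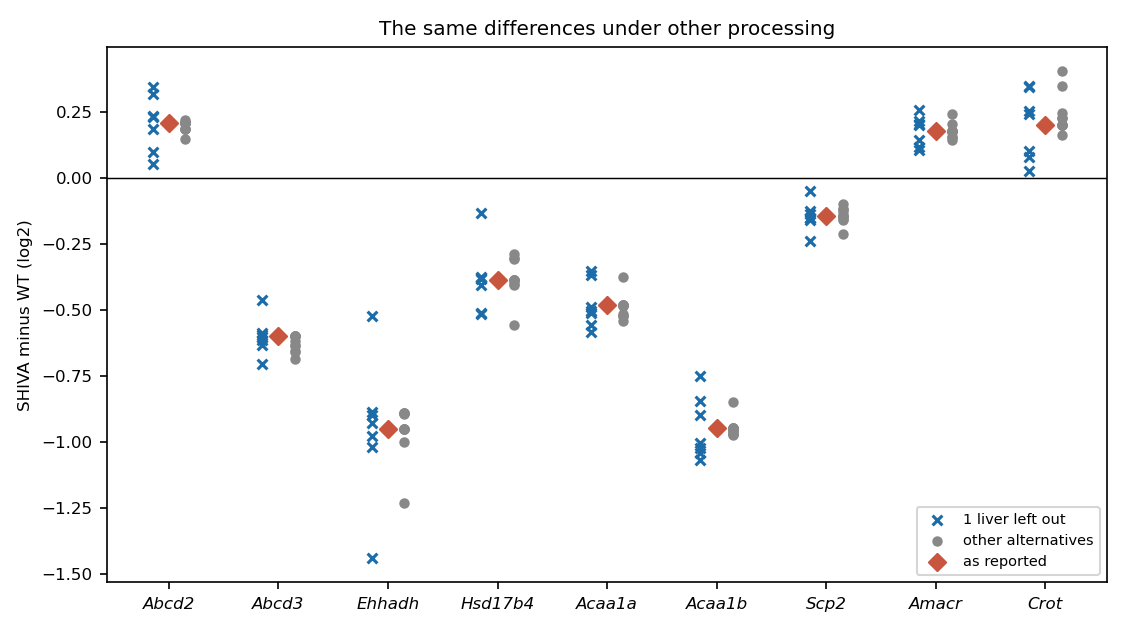
SHIVA minus WT differences on the log2 scale for the 9 genes as reported (red), with 1 liver left out (blue crosses) and under other alternatives (grey). Every member keeps its sign, and Ehhadh has the widest range, from -1.44 to -0.52.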

How the data were processed

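The authors deposited, for each of the 7 arrays, the scanner intensities written by Agilent Feature Extraction 10.5.1.1, with spatial and multiplicative detrending and no local background subtraction, and a table of log2 values that their methods describe as quantile normalized in R. Flagged spots, 120 to 163 of the 59305 spots per array that are not controls, were left out. Processed intensities were quantile normalized and put on the log2 scale here, spots of a probe were averaged, and the probe with the highest mean stood for its gene. Symbols were updated through RefSeq (GRCm38.p6, 26413 probes matched), and probe positions are those of mm9 in the files. Genes well above background on at least 3 arrays were tested with limma 3.58.1 in R 4.3.3, with Benjamini-Hochberg adjustment and a threshold of 0.05. The number of arrays limits the precision, and p-values measure the spread between mice.

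The members and lists were chosen with earlier results of these data known. All 9 members were named, all other genes of peroxisomal oxidation, Ppara, the 3 genes of largest difference in each related list, and the genes of closest pattern. Some genes that this rule names are not reported here and are counted in their lists only. Retsat, the single call among them, was added after its value was seen. Pairs of members were compared with exact permutation tests. The labels name no pairing by replicate number, but same-numbered WT and SHIVA arrays lay in the same column of the slide. Their correlations of deviations were -0.05, 0.01 and 0.24, against -0.20 to 0.20 for differently numbered pairs. An effect of the column was not tested.

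The alternatives were 75th percentile scaling, normexp (offset 50), the mean signal, the authors' table, no filter or a filter on 7 arrays, the mean of all probes, array weights, a replicate block, the methods' t-test and leaving out each mouse. Testing every probe by itself, and leaving out mice for the genes of the related lists and for the SDs of the members, were added after seeing the data. In a simulated table of 20012 genes with independent noise, limma recovered 85% of the 200 genes given a log2 change of 2. That change is larger than the difference of any member, so recovery at the size of the members' differences was not measured. RefSeq windows for Abcd2 and Amacr were not used here, and no sequence is printed for Hsd17b4.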

Additional observations from a re-analysis of the deposited data

Results flagged for a closer look

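Among the 36 genes of peroxisomal oxidation, 1 had a SHIVA liver far from the others of its group by Dixon's criterion: Crat in SHIVA replicate 2, at a log2 signal of 7.05 against 6.85 to 6.88 in the other 3. About 1.8 such genes are expected by chance.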

How the results depend on the processing

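Every one of the 9 members kept its direction in all 17 alternatives, and the median of the members stayed between -0.54 and -0.16. The filter settings and the methods' t-test use the same group means, so no direction could change there. The mean of all probes could change only Scp2, which has a second probe. The number of members called was 0 except in 3 settings. It was 1 with the mean signal and with the authors' table (Acaa1b in both), and 1 without WT replicate 3 (Ehhadh, at -1.44). With a mouse left out it ranged from 0 to 1. The mean signal and the authors' table order the spots alike, so their calls are not independent. The shares called over all genes in these 3 settings were 0.704%, 0.64% and 2.14%, against 0.375% as reported. The number of members without overlap was 4, against 12.2% of all genes. It was 2 with 75th percentile scaling (11.3%) and 3 with normexp, the mean signal or the authors' table (12.2% to 12.3%). With a mouse left out it was 4 to 6 (14.2% to 28.9%), where narrower ranges leave little room for a lower count. Over the whole array, 75 genes were called, and 141 with the mean signal, 128 with the authors' table, 13 with no filter and 269 with array weights. With a mouse left out the count ranged from 3 without WT replicate 1 to 423 without WT replicate 3, with 8 without WT replicate 2, 7 without SHIVA replicate 1 and 13 without SHIVA replicate 3. The methods' t-test called 0 genes after adjustment, with 2302 at an unadjusted p under 0.05 against 2670 by limma. A replicate block, in which SHIVA replicate 4 has no partner, called 32 genes and 0 members, and the numbers share no pairing in the labels. The 5 pair differences kept their sign in 13 alternatives each and passed in none. With a mouse left out the smallest exact permutation p that the design allows was 0.0667 or 0.1, and with the replicate block 0.25. These lie above the threshold of 0.05, so no pair could pass in those alternatives. The cause of these shifts was not tested.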
